A study of Mus musculus with 18 samples.

Results

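The milk protein genes measured here are the 4 calcium-sensitive caseins Csn1s1, Csn2, Csn1s2a and Csn1s2b, the kappa casein Csn3, the whey acidic protein gene Wap and the mucin-like whey protein gene Glycam1. They were chosen by symbol, as the platform annotation gives it, from probe sets that carry 1 gene, and each of the 7 symbols was found on 1 probe set. They are 7 of the 19938 genes tested. RNA came from mammary tumours of mice that all carry the ErbB2 transgene of the line FVB/N-Tg(MMTVneu)202Mul/J. Its promoter, from mouse mammary tumour virus, is active in mammary epithelium and responds to hormones of pregnancy. Mice labelled KO derive from the Snai2-deficient line B6;129S1-Snai2tm2Grid/J, so the genotypes arise from a cross of different strains. Each tumour came from a parous or a nulliparous mouse, with or without metastasis. The samples were 4 WT nulliparous and 4 WT parous tumours, all with metastasis. KO mice gave 3 nulliparous and 3 parous tumours without metastasis, 1 nulliparous tumour with metastasis and 3 arrays of parous mice with metastasis. Replicates 2 and 3 of the last group were nearly identical and were averaged, which left 2 samples there and 17 in all. No WT tumour without metastasis was measured. The ages of the mice, the number of pregnancies and the time since the last litter are not stated in the labels. Milk protein genes are of interest in this design because parity, a state of the mammary gland with a completed pregnancy behind it, is one of its factors.

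Milk proteins are made by the secretory luminal cells of the alveoli. Late in pregnancy prolactin, acting through its receptor, the kinase Jak2 and the transcription factor Stat5, turns on their genes together with glucocorticoids and factors such as Elf5 and Nfib. Weaning ends this signal, the alveoli regress, and the parous gland keeps a small population of epithelial cells with a memory of lactation. Caseins are phosphoproteins that carry calcium in micelles; kappa casein stabilises the micelle surface and does not bind calcium in the same way. Whey acidic protein is a late marker of secretory differentiation, while caseins appear earlier in pregnancy. Glycam1 is made in lactating alveoli and, in lymph nodes, by high endothelial venules, where it carries ligands of L-selectin.

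The caseins lie in 1 cluster on chromosome 5, in the order Csn1s1, Csn2, Csn1s2a, Csn1s2b and, past Prr27, Odam and BC037156, Csn3. Wap lies on chromosome 11 and Glycam1 on chromosome 15. The promoters are shown because several of these genes varied together across tumours, as described below, and because Stat5 is known to act through the letters TTC and GAA placed a few bases apart. RefSeq promoters of GRCm38.p6 were matched for 5 of the 7 genes; Csn1s2b and Csn3 were not matched. Each sequence below gives the 150 bases before the transcription start, on the strand of the gene, and capitals mark a match to TTCNNNGAA, which reads the same on both strands. The windows are chr5:87666058-87666207 on the plus strand for Csn1s1, chr5:87699426-87699575 on the minus strand for Csn2, chr5:87774300-87774449 on the plus strand for Csn1s2a, chr11:6638650-6638799 on the minus strand for Wap and chr15:103565082-103565231 on the minus strand for Glycam1.
Csn1s1: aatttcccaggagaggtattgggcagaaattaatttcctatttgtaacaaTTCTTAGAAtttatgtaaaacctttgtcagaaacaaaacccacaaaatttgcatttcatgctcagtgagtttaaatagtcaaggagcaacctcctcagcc
Csn2: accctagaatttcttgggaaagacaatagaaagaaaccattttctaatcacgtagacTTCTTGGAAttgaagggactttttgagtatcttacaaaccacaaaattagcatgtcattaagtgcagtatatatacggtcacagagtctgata
Csn1s2a: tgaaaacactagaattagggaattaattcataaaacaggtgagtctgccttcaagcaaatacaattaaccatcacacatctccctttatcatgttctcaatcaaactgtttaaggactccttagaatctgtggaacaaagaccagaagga
Wap: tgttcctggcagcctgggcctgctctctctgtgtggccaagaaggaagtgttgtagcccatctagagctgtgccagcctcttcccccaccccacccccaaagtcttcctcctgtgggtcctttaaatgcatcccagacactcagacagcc
Glycam1: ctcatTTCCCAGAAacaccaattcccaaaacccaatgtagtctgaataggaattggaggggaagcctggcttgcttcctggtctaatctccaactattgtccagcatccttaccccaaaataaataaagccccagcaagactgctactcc

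Within the 250 bases before the start, Csn1s1 held TTCTTAGAA at 100 to 92 bases before it, Csn2 held TTCTTGGAA at 93 to 85 bases and Glycam1 held TTCCCAGAA at 145 to 137 bases. Csn1s2a and Wap held no match in that window. Among all 32851 RefSeq promoters, 2306 or 7.02% held 1 or more. Counted by gene, 2197 of 27025 or 8.13% held a match in any of their promoters. Of genes with a matched promoter these were 3 of 5 milk protein genes, 1 of 19 other milk and secretory genes and 4 of 20 lactation signalling genes. These are matches of letters and not measurements of binding. Csn1s2a, which lacks the match, also varied together with Csn1s1 and Csn2, at r = 0.93 and 0.90 over 17 samples, against 0.94 between those genes themselves.

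The arrays gave deposited log2 values between 3.99 and 14.62, with array medians between 7.60 and 7.67; array data have no read depth, and the number of tumours limits the precision. Snai2 was dim, at 6.28 to 6.79 in KO and 6.68 to 7.09 in WT tumours, and 7 of 9 KO samples lay below the lowest WT sample. Where its probes sit relative to the Snai2 deletion could not be checked. The luminal keratin genes Krt8 (12.86 to 13.66) and Krt18 (12.78 to 13.59) were high in every tumour, and the basal keratins Krt14 (6.64 to 7.87) and Krt5 (6.27 to 7.99) were low, as the label of luminal tumours implies. A pair of WT nulliparous tumours stood apart in markers of other tissues. Replicate 3 had a salivary gland score (the mean log2 value of 4 measured markers) of 11.35 against 6.11 to 7.77 in the others, with Bpifa2 at 13.74. Replicate 1 had a skeletal muscle score of 11.04 against 6.99 to 9.52 in the others, with Acta1 at 12.84. The next highest muscle scores were 9.52 and 8.82 in KO parous and 9.01 and 8.49 in KO nulliparous tumours without metastasis. For parity in WT mice the values of milk protein genes are also given without WT nulliparous replicate 1 or without replicate 3. The correlations and the values of other genes include both.

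**Figure D1:**
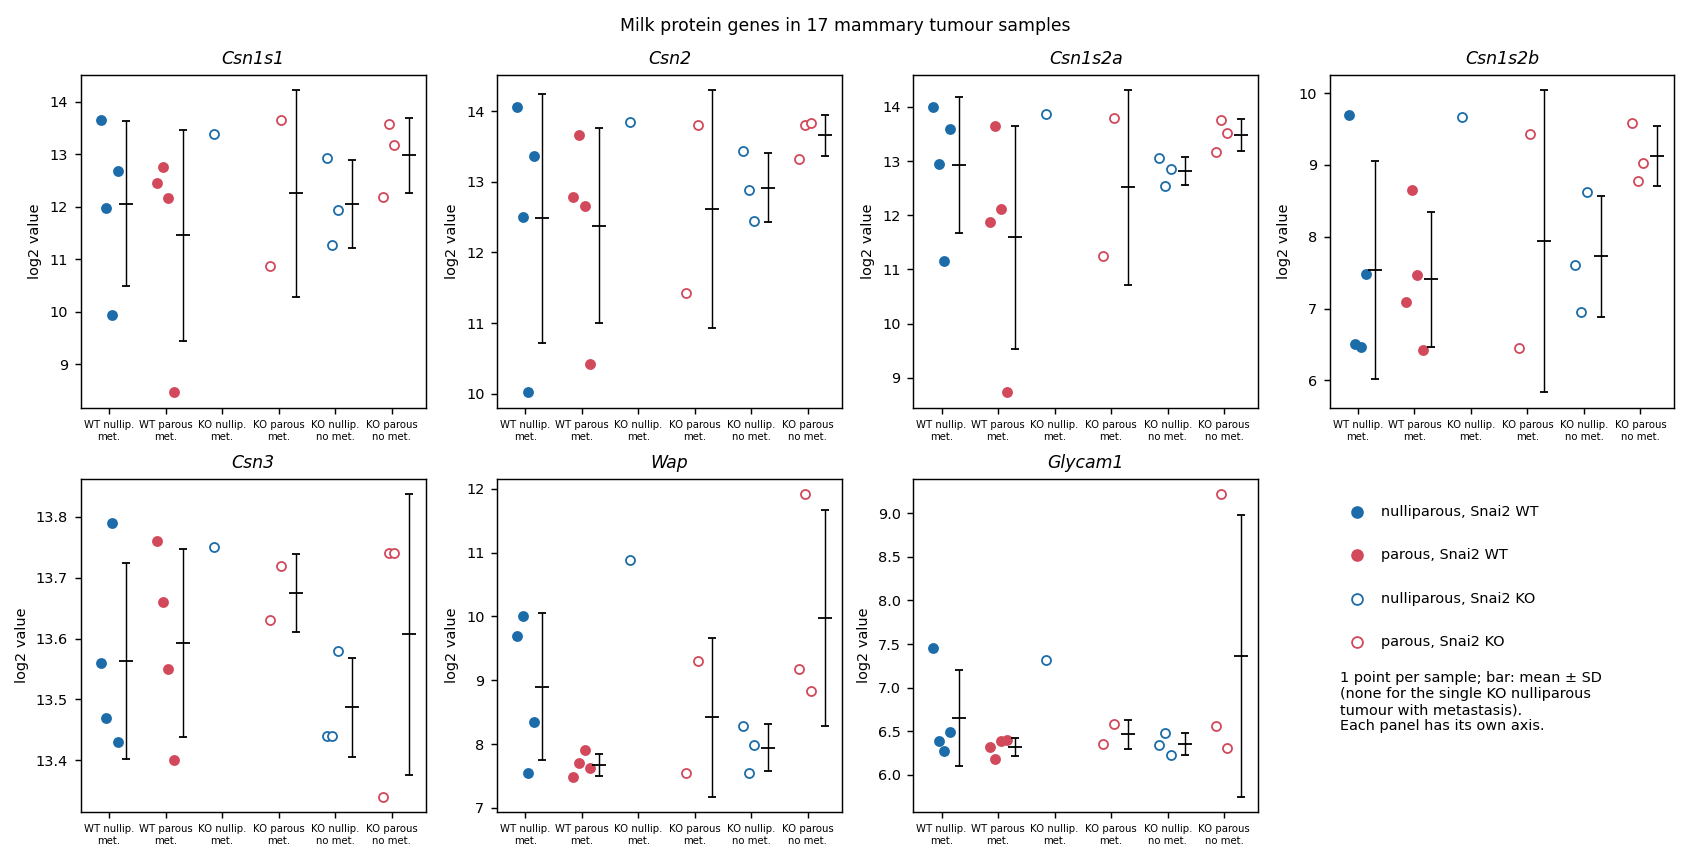
Log2 values of the 7 milk protein genes (vertical axes, each panel on its own scale) in 17 tumour samples placed by group (horizontal axes); points are samples, coloured by parity and filled for WT, and bars give mean ± SD where a group has 2 or more samples. Csn1s1, Csn2 and Csn1s2a have isolated low tumours in WT groups, Csn3 stays between 13.34 and 13.79, and the highest Wap and Glycam1 points belong to 1 KO parous tumour without metastasis.

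Csn2, which encodes beta casein, was high in most tumours whatever their group. In WT nulliparous replicates 1 to 4 its log2 values were 14.06, 12.50, 10.02 and 13.36, and in WT parous replicates 1 to 4 they were 12.78, 13.66, 12.66 and 10.42. KO nulliparous tumours without metastasis gave 13.43, 12.88 and 12.45, and KO parous ones 13.33, 13.80 and 13.84. With metastasis, the KO nulliparous tumour stood at 13.85 and the KO parous samples at 11.42 and 13.81. Thus 1 nulliparous and 1 parous WT tumour and 1 KO parous tumour were low, the other 14 samples lay at 12.45 or above, and parous and nulliparous WT tumours overlapped over almost their whole range. Group means ran from 12.38 ± 1.38 (SD, n = 4) in WT parous to 13.65 ± 0.28 (SD, n = 3) in KO parous mice without metastasis, apart from the single KO nulliparous tumour with metastasis.

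Csn1s1, the alpha-S1 casein gene, spanned 36.6-fold across the 17 samples. Its values were 13.65, 11.97, 9.93 and 12.67 in WT nulliparous and 12.45, 12.75, 12.16 and 8.46 in WT parous tumours. Without metastasis, KO nulliparous tumours had 12.93, 11.27 and 11.94 and KO parous tumours 12.18, 13.58 and 13.17; with metastasis, the KO nulliparous tumour had 13.39 and the KO parous samples had 10.86 and 13.65. WT parous replicate 4 was the lowest of all 17 samples, and the remaining tumours of its group lay between 12.16 and 12.75. The values of parous and nulliparous mice overlapped in both genotypes.

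Csn1s2a, a calcium-sensitive alpha-S2 casein gene, had the widest span of the 7, at 38.6-fold. WT nulliparous tumours had 14.00, 12.95, 11.15 and 13.59, and WT parous tumours had 11.87, 13.64, 12.12 and 8.73. KO nulliparous tumours without metastasis had 13.05, 12.54 and 12.86, all below the 13.17, 13.75 and 13.51 of KO parous ones. The KO nulliparous tumour with metastasis had 13.86, and the KO parous samples with metastasis had 11.24 and 13.79. The low tumours were again WT nulliparous replicate 3, WT parous replicate 4 and KO parous replicate 1 with metastasis.

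Csn1s2b, the neighbouring alpha-S2 casein gene, was read near the lower end of its range in many tumours and spanned 9.73-fold. Its values were 9.70, 6.50, 6.46 and 7.48 in WT nulliparous and 7.09, 8.65, 7.46 and 6.42 in WT parous tumours. KO mice without metastasis gave 7.61, 6.95 and 8.62 when nulliparous and 9.59, 8.77 and 9.02 when parous, so these groups did not overlap. KO mice with metastasis gave 9.67 when nulliparous, and 6.45 and 9.43 when parous. Of the 17 samples 4 lay between 6.42 and 6.50, where background correction compresses the values and a fold change can be understated.

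Csn3, the kappa casein gene, did not share this spread. Its 17 values lay between 13.34 and 13.79, a 1.37-fold range, and its SD of 0.15 was at the 44.1 percentile of all genes. WT nulliparous tumours had 13.56, 13.47, 13.79 and 13.43, and WT parous tumours 13.76, 13.66, 13.55 and 13.40. WT nulliparous replicate 3, the lowest tumour in Csn2, was the highest in Csn3, and WT parous replicate 4, the lowest in Csn1s1, stood at 13.40. Group means ran from 13.49 ± 0.08 (SD, n = 3) in KO nulliparous mice without metastasis to 13.68 ± 0.07 (SD, n = 2) in KO parous mice with metastasis, beside the single value of 13.75. These values sit near the top of the table, whose highest value is 14.62, and whether the probe set still reads differences at that level was not tested.

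Wap, the whey acidic protein gene, separated tumours in another way. WT nulliparous tumours had 9.70, 10.01, 7.55 and 8.34, whereas WT parous tumours had 7.48, 7.70, 7.90 and 7.62, a narrow band near the low end of the range. KO nulliparous tumours without metastasis had 8.28, 7.55 and 7.99, below the 9.17, 11.92 and 8.83 of KO parous ones. The KO nulliparous tumour with metastasis had 10.89, and the KO parous samples with metastasis had 7.54 and 9.30. The highest value therefore came from a KO parous tumour, the next from a KO nulliparous tumour with metastasis, and the 4 WT parous tumours all lay at 7.90 or below.

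Glycam1 was dim in most tumours and stood out in few. It lay between 6.18 and 6.58 in 14 of the 17 samples. The exceptions were KO parous replicate 2 without metastasis at 9.22, WT nulliparous replicate 1 at 7.46 and the KO nulliparous tumour with metastasis at 7.32. These are the tumours with the highest, the fourth highest and the next to highest Wap values. Markers of high endothelial venules and lymph node did not move with the highest Glycam1 value: in KO parous replicate 2 their score was 6.34, within the 6.21 to 6.63 of the 16 samples other than the KO nulliparous tumour with metastasis, and Madcam1 and Chst4 stood at 6.49 and 6.13. In the KO nulliparous tumour with metastasis that score was the highest of the 17, at 6.90, with a B cell score of 7.06, and their part in its Glycam1 value was not tested.

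Most of this variation lay between tumours of the same group. Csn1s1, Csn2, Csn1s2a, Csn1s2b and Wap were among the 1% of genes with the largest SD over the 17 samples, with SDs of 1.20 to 1.40 against a median of 0.17 over all genes. Differences among the 6 group means held 17.8% of the variance of Csn1s1, 19.4% of Csn2, 28.5% of Csn1s2a, 36.6% of Csn1s2b, 22.4% of Csn3, 30.5% of Glycam1 and 57.8% of Wap. With no difference among groups 31.2% is the share that 6 groups of these sizes give on average, and the median over all genes was 33.7%. Wap alone of the 7 lay well above both. When the groups were put in order of their means, neighbouring groups differed by less than the pooled SD within groups for every gene except between the 9.97 of KO parous mice without metastasis and the 8.90 of WT nulliparous mice in Wap, a gap of 1.07 against an SD of 1.03. Since whole tumours were profiled, fewer secretory cells and less milk protein RNA in each cell cannot be told apart.

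**Figure D2:**
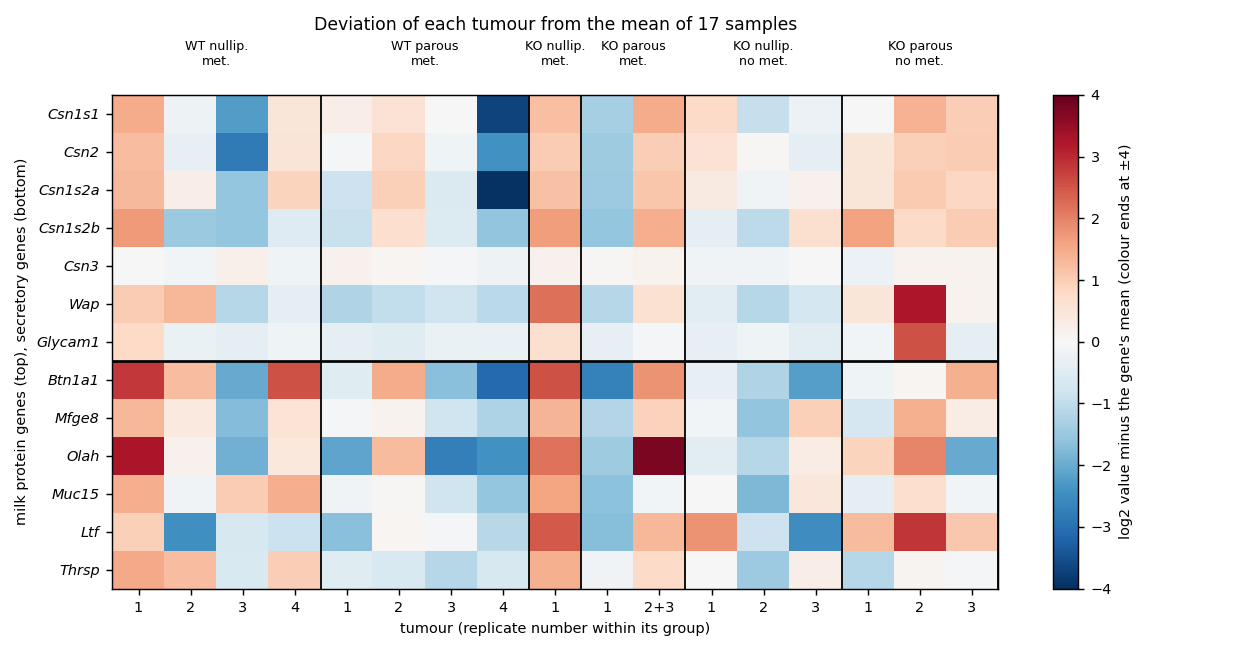
Colour gives each tumour's log2 value minus the gene's mean over 17 samples, for the 7 milk protein genes above the line and the 6 most variable other secretory genes below it; columns are tumours, by group and replicate number (2+3 is the averaged pair). Columns that are dark blue in the caseins (WT nulliparous 3, WT parous 4, KO parous with metastasis 1) are also blue in Btn1a1 and Olah, and the row of Csn3 is nearly blank; the colour scale ends at ±4.

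The tumours with high and low values were largely the same from gene to gene. The KO nulliparous tumour with metastasis was among the 4 highest samples in 7 of 7 genes, and WT nulliparous replicate 1 in 6. The averaged KO parous sample with metastasis and KO parous replicate 2 without metastasis were each among the 4 highest in 5. At the other end, WT nulliparous replicate 3 was among the 4 lowest in 6 genes, and WT parous replicate 4 and KO parous replicate 1 with metastasis in 5. The low tumours thus include both genotypes and both parities. Their luminal epithelium scores were 11.05, 11.07 and 10.60; the first pair lay within the 10.72 to 11.52 of the other 14 samples, and the 10.60 of the KO tumour lay below it. The salivary signal of WT nulliparous replicate 3 goes with its low caseins, and its part in them was not tested.

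**Figure D3:**
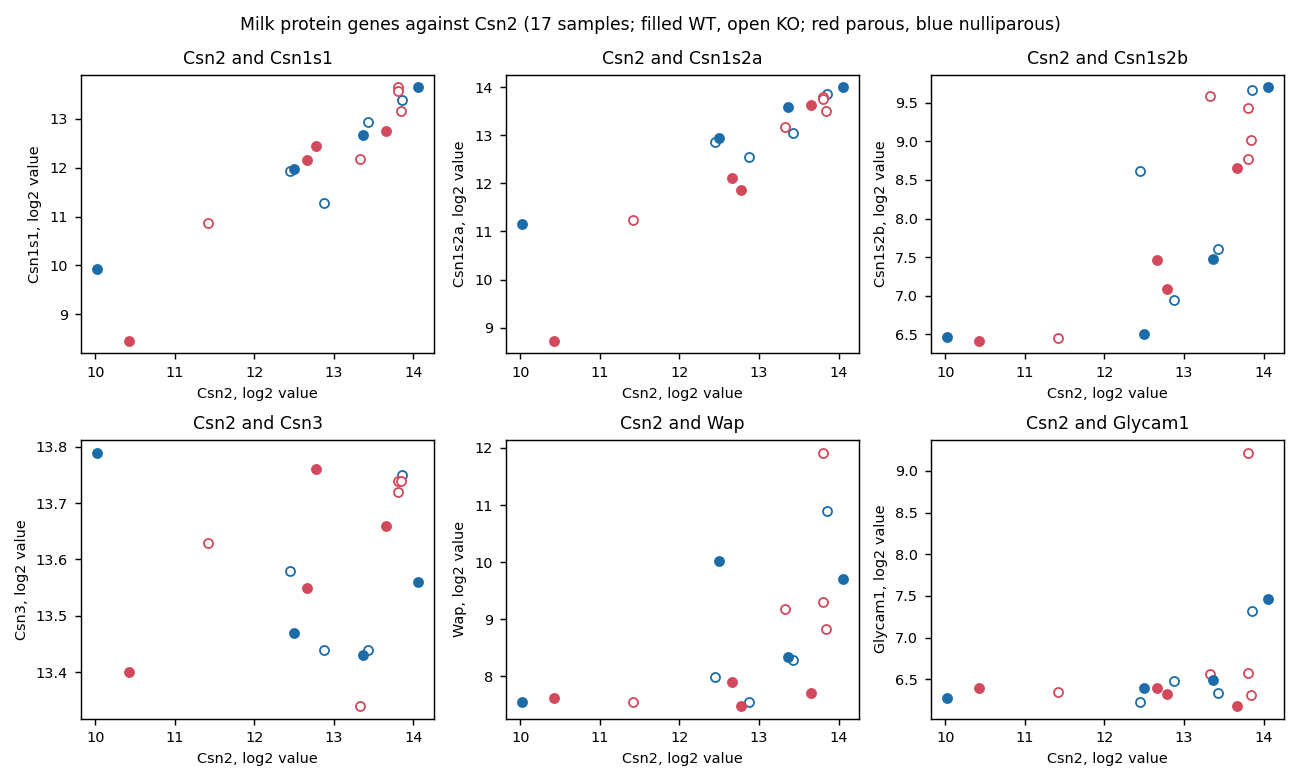
Log2 values of 6 milk protein genes (vertical axes) against Csn2 (horizontal axes) in 17 samples; filled points are WT and open points KO, red is parous and blue nulliparous. Csn1s1 and Csn1s2a rise with Csn2 across the whole range, Csn1s2b rises too, Csn3 shows no such relation over all 17 samples, and high Wap and Glycam1 occur in tumours with high Csn2, with a Wap value of 10.01 at a Csn2 value of 12.50 as an exception.

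Correlations over the 17 samples put a number on this for the 21 pairs of genes, with p-values from 100000 permutations and Benjamini-Hochberg adjustment over the 21 pairs. The closest pair was Csn1s1 and Csn2, with Pearson r = 0.94 and Spearman rho = 0.94 (permutation p = 1e-05 for both, the smallest that these permutations can give; adjusted p = 1e-04 for r and 8e-05 for rho). It stayed at r = 0.90 without the 2 samples farthest from the median, and at 0.94 within groups. Csn1s1 with Csn1s2a gave r = 0.93 and rho = 0.91, and Csn2 with Csn1s2a r = 0.90 and rho = 0.92. Csn1s2b followed these at r = 0.74 to 0.77. Over the 6 pairs of these 4 genes, r within groups was 0.69 to 0.95, and 0.70 to 0.90 without the 2 farthest samples. The 4 genes are neighbours in the casein cluster, share the same arrays, and were read from the same RNA of each tumour.

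Csn3, in the same cluster, did not pass with any of them over the 17 samples. Its r with the 6 other genes lay between 0.06 and 0.28, and the smallest adjusted p was 0.363 by r over permutations. Without the 2 samples farthest in Csn3, r was 0.55 with Csn1s1, 0.59 with Csn1s2b and 0.46 with Csn2. Without the 2 farthest in the other gene it was 0.43, 0.13 and 0.22, in the same order. Over all 17 samples rho was 0.27, 0.14 and 0.17. The r of Csn3 with these genes thus depends on which samples are left out. Wap went with Glycam1 at r = 0.82 and rho = 0.63 (permutation p = 0.00028 and 0.00721, adjusted p = 0.00084 and 0.0138), but r was 0.56 without the 2 samples farthest in Wap. With the 4 calcium-sensitive caseins Wap reached r = 0.54 to 0.59 and rho = 0.65 to 0.79, with adjusted permutation p between 0.0375 and 0.0463 for r. Within groups these r were 0.31 to 0.49. Glycam1 and the caseins did not pass, with r between 0.25 and 0.42. In all, 11 of 21 pairs passed by r and 11 by rho.

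**Figure D4:**
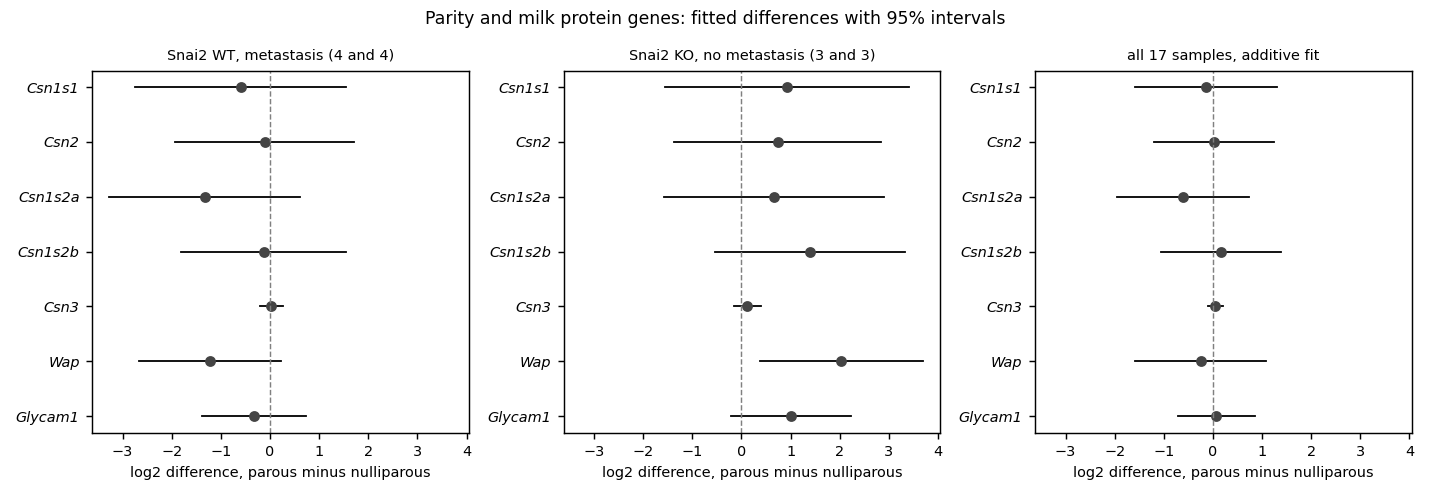
Fitted log2 differences, parous minus nulliparous (horizontal axes), with 95% intervals for each of the 7 genes (vertical axes), in WT mice with metastasis, in KO mice without metastasis and in the additive fit of all 17 samples. Of the 21 intervals only that of Wap in KO mice, 0.37 to 3.70, leaves out 0, and before adjustment over genes.

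Whether a history of pregnancy goes with the level of milk protein genes was asked in WT mice with metastasis, 4 parous against 4 nulliparous. None of the 7 genes passed at an adjusted p under 0.05 by limma, where 2.4% of all genes did (1.86% lower and 0.542% higher in parous mice), and 0 had an unadjusted p under 0.05, against 16.2% of all genes. Wap had the smallest p, with a nulliparous mean of 8.90 ± 1.15 (SD, n = 4), a parous mean of 7.68 ± 0.18 (SD, n = 4) and a log2 difference of -1.22 (SE 0.67, 95% interval -2.67 to 0.22, limma adjusted p = 0.407). Csn1s2a stood at -1.33 (SE 0.90, interval -3.27 to 0.61, limma adjusted p = 0.523) and Csn1s1 at -0.60 (SE 1.00). Csn2 stood at -0.11 (SE 0.84), Csn1s2b at -0.13 (SE 0.78), Glycam1 at -0.33 (SE 0.49) and Csn3 at 0.03 (SE 0.11). In 6 of the 7 the parous mean was the lower and 1 lay above 0, against 48.3% of all genes above 0. The median was -0.33 against -0.01 over all genes. Yet 0 of the 7 had groups that did not overlap, against 12.6% of all genes. The intervals of Csn1s1 (-2.75 to 1.55), Csn2 (-1.93 to 1.72) and Csn1s2b (-1.81 to 1.55) take in differences of over 1 log2 unit in both directions, and that of Csn1s2a in the lower direction, so at this spread such differences were not detectable.

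Individual tumours decided the sign for some of these. Without WT parous replicate 4, the tumour with the lowest Csn1s1, the difference was 0.40 for Csn1s1, 0.55 for Csn2 and -0.38 for Csn1s2a. Without WT nulliparous replicate 3, the tumour with salivary gland signal, it was -1.31 for Csn1s1, -0.93 for Csn2, -1.92 for Csn1s2a and -1.67 for Wap. Without WT nulliparous replicate 1, with muscle signal, Csn2 stood at 0.42, Csn1s2b at 0.59, Csn1s2a at -0.97, Wap at -0.96 and Glycam1 at -0.06. Csn1s2a stood at -2.01 without WT parous replicate 2. The median over the 7 genes was 0.09 without WT parous replicate 4 and -0.93 without WT nulliparous replicate 3. None of the 7 genes passed in any of these fits.

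Markers of several other cell types also had lower means in parous WT tumours. Over all genes 48.3% lay above 0, the median was -0.005 and limma called 2.4%. All members lay below 0 for 7 fibroblast markers (median -0.73), 7 macrophage markers (-0.59), 8 adipocyte markers (-0.55, with 1, Lipe, called), 8 skeletal muscle markers (-0.80), 5 T cell markers (-0.41) and 5 endothelium markers (-0.19). Score ranges in nulliparous and parous tumours were 9.61 to 10.60 and 7.89 to 10.25 for fibroblasts, 9.78 to 10.28 and 9.10 to 10.27 for macrophages, and 8.06 to 9.04 and 7.64 to 8.18 for adipocytes. They were 7.03 to 11.04 and 6.99 to 8.38 for muscle, 6.65 to 7.88 and 6.48 to 6.68 for T cells, and 8.89 to 9.58 and 8.49 to 9.55 for endothelium. Luminal markers lay below 0 in 5 of 9 (median -0.04), with scores of 10.77 to 11.09 and 10.92 to 11.07. Alveolar progenitor markers did so in 4 of 5 (-0.23), with scores of 9.95 to 11.15 and 10.13 to 10.92. Medians were -0.1 for B cell (4 of 4 below 0), -1.02 for salivary gland (3 of 4) and -0.003 for basal markers (5 of 9). They were -0.006 for high endothelial venule and lymph node markers (4 of 8) and 0.08 for skin markers (1 of 4). The part of these cell types in the milk protein values was not tested.

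In KO mice without metastasis, 3 parous against 3 nulliparous, all 7 genes had the higher mean in parous mice, against 52.6% of all genes. The median log2 difference was 0.93 against 0.01 over all genes. Limma called 0 of 7 genes, and 0% of all genes; at an unadjusted p under 0.05 there was 1, Wap, against 3.29% of all genes. Wap had a nulliparous mean of 7.94 ± 0.37 (SD, n = 3) and a parous mean of 9.97 ± 1.69 (SD, n = 3), a log2 difference of 2.03 (SE 0.77, 95% interval 0.37 to 3.70, limma unadjusted p = 0.0205, adjusted p = 1). The groups did not overlap for Wap, Csn1s2a and Csn1s2b, or 3 of 7 genes, against 6.04% of all genes. Several of the 7 varied together across tumours, so these counts are not of independent observations. The differences were 1.40 (SE 0.90) for Csn1s2b, 1.01 (SE 0.57) for Glycam1, 0.93 (SE 1.15) for Csn1s1, 0.74 (SE 0.97) for Csn2, 0.66 (SE 1.04) for Csn1s2a and 0.12 (SE 0.13) for Csn3, each with limma adjusted p = 1. The sizes of Wap and Glycam1 rested on parous replicate 2: without it they were 1.06 and 0.08.

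That tumour differed from the rest of its group in more than whey genes. KO parous replicate 2 without metastasis had the highest luminal (11.52), alveolar progenitor (12.02) and basal (8.39) scores of the 17 samples. It also had the highest macrophage (10.41), endothelium (9.87) and skin (7.23) scores. Ltf, which encodes the iron-binding milk protein lactoferrin, was at 12.98 there, its highest value. Ltf is 1 of the 5 markers in the alveolar progenitor score, so it is not a separate observation. The part of these other cell types in its Wap and Glycam1 values was not tested.

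The difference between the 2 parity contrasts, KO minus WT, was tested directly. Metastasis status changes with genotype in it, so the 2 cannot be told apart. It was above 0 for all 7 genes, against 54.9% of all genes, with a median of 1.53 against 0.02 over all genes. Wap had the smallest p, at 3.26 (SE 1.02, 95% interval 1.05 to 5.46, limma unadjusted p = 0.00705, adjusted p = 0.357), since parous tumours were lower in WT and higher in KO mice. Without KO parous replicate 2 that value was 2.29 (limma adjusted p = 0.604), and over all samples left out in turn it ran from 2.29 to 3.83. Csn1s2a stood at 1.99 (SE 1.37), Csn1s1 at 1.53 (SE 1.52), Csn1s2b at 1.53 (SE 1.19), Glycam1 at 1.34 (SE 0.75), Csn2 at 0.84 (SE 1.29) and Csn3 at 0.09 (SE 0.16). With 1 sample left out these sank as low as 1.04 for Csn1s2a, 0.53 for Csn1s1 and 0.19 for Csn2, each without WT parous replicate 4, 0.81 for Csn1s2b without WT nulliparous replicate 1, 0.41 for Glycam1 without KO parous replicate 2 and 0.01 for Csn3 without WT nulliparous replicate 3. Limma called 0 of the 7 genes and 0% of all genes; before adjustment Wap alone had p under 0.05, where 9.64% of all genes did.

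Over all 17 samples, with genotype and metastasis status in the fit, parity differences were small beside their errors. They ran from -0.62 (SE 0.63) for Csn1s2a to 0.16 (SE 0.57) for Csn1s2b, with Csn2 at 0.02 (SE 0.57), Wap at -0.25 (SE 0.63) and limma adjusted p between 0.753 and 0.996. Csn1s2a stood at -0.14 without WT parous replicate 4. Limma called 0 of 7 genes and 0% of all genes in this fit, and 0 of the 7 had an unadjusted p under 0.05, against 12.7% of all genes. This comparison shares its samples with those above. It assumes the same parity difference in every group, so differences of opposite sign offset each other in it. Wap, for one, stood at -1.22 in WT mice and 2.03 in KO mice without metastasis. Small values here therefore do not speak for the absence of a difference within a genotype.

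Genotype and metastasis were compared among parous mice. Between KO (n = 2) and WT (n = 4) parous mice with metastasis the 7 log2 differences ran from 0.08 for Csn3 to 0.93 for Csn1s2a, with limma adjusted p between 0.964 and 0.994. Among KO parous mice, those with metastasis (n = 2) differed from those without (n = 3) by -1.56 (SE 0.86) in Wap, -1.19 (SE 1.00) in Csn1s2b, -1.04 (SE 1.09) in Csn2 and 0.07 (SE 0.14) in Csn3, with limma adjusted p between 0.967 and 0.983. Limma called 0 of 7 genes and 0% of all genes in each. At an unadjusted p under 0.05 there were 0 of the 7 in either, against 5.73% of all genes for genotype and 4.04% for metastasis. No gene of the 7 had groups that did not overlap in either, against 17.9% and 14.4% of all genes. The 2 KO parous samples with metastasis lie at opposite ends, with Csn1s1 at 10.86 and 13.65, so signs depended on which of the 2 was kept. Without the averaged sample Csn1s1 stood at -0.59 in the genotype comparison, and without replicate 1 it stood at 0.67 in the metastasis comparison; without WT parous replicate 4 it stood at -0.20 in the genotype comparison.

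Other products of the secretory cell were followed through a list of 26 genes for milk fat, whey and transport, 24 of which were measured. Btn1a1, the butyrophilin of the milk fat globule membrane, spanned 60.9-fold, from 7.17 in WT parous replicate 4 to 13.10 in WT nulliparous replicate 1. Olah, the thioesterase that ends medium-chain fatty acid synthesis, ran from 5.85 in WT parous replicate 3, where it was at the 15.8 percentile of genes on that array, to 12.35 in the averaged KO parous sample with metastasis; a fold against such a dim value can be understated. Mfge8, another protein of the fat globule, ran from 10.60 in WT nulliparous replicate 3 to 13.75 in KO parous replicate 2 without metastasis. The tumours at the ends are thus among those at the ends of the caseins, other than WT parous replicate 3. Against the mean of the 7 scaled milk protein genes over the 17 samples, r was 0.84 for Mfge8, 0.75 for Olah, 0.74 for Btn1a1, 0.72 for Ltf, 0.60 for Muc15 and 0.51 for Thrsp. Of the 24 genes 11 (45.8%) had r over 0.5, against 5.72% of the 19931 other genes; these are descriptions over shared arrays.

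None of these genes passed in either comparison of parity. In WT mice 20 of 24 genes were lower in parous tumours, with a median of -0.20, and 5 had an unadjusted p under 0.05, against 16.2% of all genes; 4 of the 24 lay above 0, against 48.3% of all genes. Limma called 0 of the 24, against 2.4% of all genes. Thrsp, a regulator of lipogenesis, stood at -1.51 (SE 0.48, limma adjusted p = 0.126) and Muc15 at -1.54 (SE 0.55, limma adjusted p = 0.17). In KO mice without metastasis 21 of 24 were higher in parous tumours, with a median of 0.20 and 0 called, where 52.6% of all genes were above 0 and 0% were called. Ltf stood at 2.23 (SE 1.10) and Btn1a1 at 1.68 (SE 1.42), each with limma adjusted p = 1.

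The signalling list holds the prolactin pathway and the transcription factors of alveolar cells, with 22 of 23 genes measured. In WT mice 15 of 22 were lower in parous tumours (median -0.20) and 7 above 0, against 48.3% of all genes above 0. At an unadjusted p under 0.05 there were 7, against 16.2% of all genes, and 0 were called, against 2.4%. In KO mice without metastasis 15 of 22 were higher in parous tumours (median 0.06), against 52.6% of all genes. Limma called 0 of them there, and 0% of all genes. Stat5a, the main Stat5 of the mammary gland, stood at -0.70 (SE 0.18, limma adjusted p = 0.0674) in WT and 0.27 (SE 0.21, limma adjusted p = 1) in KO mice without metastasis. The difference of these was 0.96 (SE 0.28, limma unadjusted p = 0.00434, adjusted p = 0.353). Over the 17 samples r to the mean of the milk protein genes was 0.71 for Esr1, the oestrogen receptor, 0.68 for Elf5, 0.66 for the Stat5 target Cish, 0.61 for Nfib and 0.60 for Stat5a. It was 0.20 for Cav1, 0.04 for Stat5b, -0.43 for Erbb4, a receptor kinase of the ErbB family, and -0.61 for Id2. Of these genes Elf5, Nfib and Id2 are not among the 6 of the list with the largest SD. In all 6 of 22 genes (27.3%) had r over 0.5, against 5.72% of the 19931 other genes, and the median r of the list was 0.20.

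Of 13 measured neighbours of the caseins on chromosome 5, none rose and fell with the milk protein genes at r over 0.5, and the median r was -0.23, against -0.08 over the 19931 other genes. There were 2 with r below -0.5, or 15.4% against 9.15% of all genes: Rufy3 (r = -0.61, rho = -0.64) and Cabs1, next to Csn3 (r = -0.57, rho = -0.59). Rufy3 ran from 7.86 to 8.64. Sult1d1, at 5.73 to 6.95, had r = 0.13, and Smr2, at 4.92 to 5.58, had r = -0.01. Many of the neighbours were dim and hardly varied, such as Cabs1 at 5.61 to 5.98, Sult1e1 at 4.66 to 5.01 and Enam at 5.09 to 5.38. For such genes r says little, whether low or negative. The list also holds Ramp3 (0.20) and Tbrg4 (0.04) on chromosome 11. Odam, which lies between Csn1s2b and Csn3 and encodes a protein of enamel-forming and junctional epithelium, was high in WT nulliparous replicate 3 (11.93) and WT parous replicate 1 (10.36) and had r = -0.11. These are the samples with the highest and next highest Csn3 values. Smr3a, a salivary gene past Csn3, had r = -0.34 and rho = -0.60; it was at 8.86 in WT nulliparous replicate 3 and at 5.47 to 5.73 in the others, so that the salivary score and the low caseins of this tumour fall together. Jchain, expressed in plasma cells, had its highest value in the KO nulliparous tumour with metastasis and r = 0.19. Limma called 0 of the 15 listed genes in each parity comparison.

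Among all genes, those with patterns most like the mean of the 7 scaled milk protein genes were, by r over 17 samples, Arpc5 (0.89), a subunit of the Arp2/3 complex of actin branching, Sftpd (0.86), the collectin surfactant protein D, Eva1b, Ilk, Flvcr1, a heme exporter, Mfge8 (0.84), Slk, Ube2f, Lysmd2 and Plpbp (0.84). Sftpd was also the closest outside gene to Csn2 (0.86) and Csn1s2b (0.89) and next to closest to Csn1s1 (0.84). Arpc5 was closest to Wap (0.92), followed, past 1 predicted gene, by Tmc5 (0.88). For Csn3 the closest were Baiap2l1 (0.81), Zfp715 (0.80) and Macrod2 (0.78), none of them among the closest 3 of another member. For Glycam1 they were Akap6 (r = 0.95, rho = 0.47), Tmc5 (r = 0.94, rho = 0.77) and Gulp1 (r = 0.93, rho = 0.22). Without the 2 samples farthest in Glycam1, which include the tumour at 9.22, r was 0.63 for Akap6 and 0.48 for Gulp1. For Tmc5 it was 0.92, so that r rested less on those samples. As the highest of 19931 genes, these values were picked for their size and carry no test.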

How the data were processed

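RNA of 18 mammary tumours was read on single-colour arrays, and the deposited log2 values, 1 column per array, were used as they are; per the submitters' processing notes the authors used RMA and the package oligo (no version stated). RMA combines background correction, quantile normalization and probe summaries, so shifts common to all genes are removed and dim values are compressed. Of 35556 probe sets 21789 carry 1 gene, and the brightest per gene was kept (19938 genes). The arrays labelled 2 and 3 among KO parous mice with metastasis were averaged: they differed with an SD of 0.102, whereas any other of the 153 pairs of arrays reached at least 0.285. Groups were compared with limma 3.58.1 under R 4.3.3 (moderated tests, 2-sided, Benjamini-Hochberg adjustment over all genes, threshold 0.05) in a fit of 6 group means, and for parity over all samples in a fit with genotype and metastasis status. Limma was tested on simulated data of 19938 genes. The labels call the arrays biological replicates; slides and scan dates were not used. The genes and lists were chosen with earlier results of these data known. Genes named from the lists are the 6 with the largest SD in each and those a sentence needs, chosen after their values were seen; the most similar genes are the 10 closest to the mean pattern and the 3 closest to each milk protein gene. Names were checked against RefSeq genes of GRCm38.p6, which matched 19855. Alternatives covered the averaging, probe sets, dim genes, normalization, eBayes options, samples left out and the samples in the fit.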

Additional observations from a re-analysis of the deposited data

Results flagged for a closer look

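In the WT parous tumours the Csn1s1 value of replicate 4, 8.46, stood apart from the 12.16 to 12.75 of the other tumours of its group. The gap was 0.862 of the group's whole range, above Dixon's 95% critical value for 4 samples. This was 1 of 14 groups of 4 looked at for the 7 milk protein genes, and chance alone marks about 1 group in 20. The same tumour was the lowest of the 17 samples in Csn1s2a (8.73) and Csn1s2b (6.42) as well.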

How the results depend on the processing

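The count of milk protein genes passing by limma was 0 in every comparison under every alternative run, and the smallest adjusted p of any of them was 0.209. Of 1228 alternative values, 1181 were labelled the same and 47, all of single genes, turned the sign, in 21 of 42 differences. The 1181 include counts of genes passing, which have no sign. They also include medians over the 7 genes, labelled the same when they moved by less than 0.848, whatever their sign. With samples left out in turn these medians ran from -0.927 to 0.092 for parity in WT and from -0.337 to 0.172 over all samples, so some crossed 0. The 1181 further include settings that could not turn a sign. In the fit of group means, leaving out a tumour from a group outside a comparison cannot change that difference. A choice among probe sets does not touch genes read from 1 probe set, as the milk protein genes are. The 1181 are therefore no measure of how stable the signs were. None of the 47 was past the threshold in either form. Most of the 47 turned when 1 sample was left out. The ranges over samples left out in turn were as follows. For parity in WT they were -1.308 to 0.399 for Csn1s1, -0.927 to 0.549 for Csn2, -0.548 to 0.59 for Csn1s2b and -0.025 to 0.106 for Csn3. For genotype they were -0.591 to 2.198 for Csn1s1, -0.961 to 1.428 for Csn2, -0.348 to 2.197 for Csn1s2a, -0.953 to 2.021 for Csn1s2b and -0.139 to 1.62 for Wap. For metastasis they were -2.117 to 0.673 for Csn1s1, -2.234 to 0.155 for Csn2, -2.234 to 0.312 for Csn1s2a, -2.673 to 0.302 for Csn1s2b, -0.061 to 0.138 for Csn3 and -1.425 to 0.034 for Glycam1. For parity over all samples they were -0.413 to 0.341 for Csn1s1, -0.337 to 0.315 for Csn2, -0.053 to 0.524 for Csn1s2b, -0.731 to 0.172 for Wap and -0.294 to 0.244 for Glycam1. Quantile normalization again gave -0.009 for Csn3 in WT parity and -0.014 for Csn2 in parity over all samples. Leaving out both WT nulliparous tumours with muscle or salivary signal, chosen after seeing the data, gave 0.413 for Csn1s2b in WT parity, -0.023 for Csn3 in the difference of parity contrasts and -0.129 for Csn2 in parity over all samples. The cause of these turns was not tested, beyond the fewer samples. Glycam1 has no value once the dimmest 40% of genes are left out. Replicate numbers did not pair the samples: same-numbered samples correlated at -0.154 to 0.07 in WT and -0.308 to -0.052 in KO mice. With the replicate block 0 milk protein genes passed in WT parity (median -0.33), KO parity (median 0.93) and their difference. A group that loses a sample and keeps 1 is assumed to vary like the others. The number of tumours and their spread limit these comparisons: the SE of a casein difference other than Csn3 was 0.57 or more.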

Other observations

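Csn3 was not alone in its narrow range. Among the other secretory genes, picked here after their values were seen, Trf, the transferrin gene, spanned 1.20-fold over the 17 samples, Xdh, the xanthine dehydrogenase of the fat globule membrane, 1.37-fold and Wfdc18, a whey acidic protein relative, 1.45-fold. Their values lay at 14.00 to 14.26, 12.59 to 13.04 and 13.26 to 13.80. Tumours with the lowest Csn1s1 and Csn2 therefore still read close to the others in Csn3, Trf, Xdh and Wfdc18, all of them bright probe sets.

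Some secretory and transport genes of the same list did not follow the milk protein genes, with r to their mean of -0.16 for Pigr, the receptor that carries immunoglobulin into milk, -0.07 for the folate receptor Folr1 and 0.03 for the glucose transporter Slc2a1. Pigr still spanned 6.71-fold, from 8.33 to 11.08. Muc1 (0.72), a mucin of the luminal surface, and the lipase Lpl (0.62) did follow them.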
